A study of Homo sapiens with 6 samples.

Results

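Notch signalling passes between neighbouring cells. A ligand such as DLL1 or JAG1 on one cell binds a NOTCH receptor on the next, the receptor is cleaved, and its intracellular part enters the nucleus and joins the DNA-binding protein RBPJ to switch on target genes. The best known targets, the HES and HEY genes, encode basic helix-loop-helix (bHLH) repressors that hold back proneural bHLH factors and so delay the differentiation of neurons, including those of the sympathetic lineage from which neuroblastoma arises. The 10 genes described here were taken by name from 19970 protein-coding genes: the receptors NOTCH1, NOTCH2 and NOTCH3, the ligands DLL1 and JAG1, and the bHLH genes HES1, HES5, HES6, HEY1 and HEY2.

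All libraries were made by CUT&Tag, which uses a transposase held in place by an antibody to mark DNA around a bound protein. The cells were SK-N-BE(2), an established MYCN-amplified neuroblastoma line, so the data describe 1 cell line with no treatment. There were 2 libraries with an antibody against HAND2, a bHLH factor of the sympathetic lineage, 2 against MEIS2, a TALE homeodomain factor, and 1 against TCF4, one of the E proteins with which lineage bHLH factors dimerise. An IgG library was also made and has no peak list here. TCF4 values therefore have no replicate check, and nothing in the labels says that the replicates of HAND2 or MEIS2 were separate cultures.

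HAND2 had 30410 peaks in replicate 1 and 33484 in replicate 2, MEIS2 had 9595 and 13871, and the TCF4 library had 30704. At a summit the median pile-up was 34 and 41 fragments in the HAND2 libraries, 22 and 13 in those of MEIS2 and 60 in that of TCF4. With such low pile-ups, a site missing from a MEIS2 list may lie below what those libraries could show. In MEIS2 replicate 2 the lowest and the median local background were both 0.765. Its peaks near NOTCH2 and HEY1 all had this lowest background, so their folds differ by pile-up alone. Every identifier in the list of MEIS2 replicate 2 carries the word Flag, which the labels do not explain, and each MEIS2 result is therefore also given by replicate. As a check of the cells, HAND2 regions lay at an end of 13 of 15 adrenergic neuroblastoma genes, 4 of 8 mesenchymal, 1 of 6 liver and 1 of 6 blood cell genes. The share over all protein-coding genes was 19.1%. In the same order, TCF4 peaks lay at an end of 13, 4, 2 and 2, against 53.9%, and MEIS2 regions at 2, 2, 0 and 0, against 0.946%. The local background at MYCN was 177 to 358 times the list median in the 4 libraries with a peak there.

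The promoter sequences of 3 HES genes are shown with the letters of motifs known for RBPJ, HES and other bHLH proteins. Each line gives the 250 bases before the gene's start from RefSeq (GRCh38.p14), 5′ to 3′ on the gene's own strand. Capitals mark the RBPJ core (TGGGAA), the N-box that HES proteins bind (CACNAG) and the E-box of bHLH dimers (CANNTG), each searched on both strands. HES1 lies at chr3:194135898-194136147 on the plus strand, HES5 at chr1:2530264-2530513 and HES6 at chr2:238240039-238240288, both on the minus strand. They are shown because HES1 carried the strongest HAND2 and TCF4 peaks of the 10 genes, HES5 had no peak over this stretch, and HES6 had TCF4 alone.
HES1: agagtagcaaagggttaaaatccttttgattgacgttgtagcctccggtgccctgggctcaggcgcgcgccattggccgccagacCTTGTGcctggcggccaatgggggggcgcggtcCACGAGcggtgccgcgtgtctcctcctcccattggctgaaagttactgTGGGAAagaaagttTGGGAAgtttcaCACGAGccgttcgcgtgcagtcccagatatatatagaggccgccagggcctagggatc
HES5: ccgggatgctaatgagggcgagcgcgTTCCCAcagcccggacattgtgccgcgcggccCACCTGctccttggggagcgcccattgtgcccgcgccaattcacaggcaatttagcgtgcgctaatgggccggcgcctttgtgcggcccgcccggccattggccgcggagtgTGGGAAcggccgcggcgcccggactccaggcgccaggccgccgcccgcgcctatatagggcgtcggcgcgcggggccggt
HES6: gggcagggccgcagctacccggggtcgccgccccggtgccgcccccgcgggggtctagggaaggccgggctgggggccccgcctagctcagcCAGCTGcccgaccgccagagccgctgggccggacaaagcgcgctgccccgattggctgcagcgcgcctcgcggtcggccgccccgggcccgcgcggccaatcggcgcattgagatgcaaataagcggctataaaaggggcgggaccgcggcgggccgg

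Counted back from the start, the HES1 stretch held RBPJ cores at -84 and -70, N-boxes at -165, -132 and -58, and no E-box. The HES5 stretch held RBPJ cores at -224 and -80 and an E-box at -192. The HES6 stretch held an E-box at -158 and neither of the other motifs. Of 22139 such stretches in the promoter table, 20.1% held an RBPJ core, 30.9% an N-box and 58.1% an E-box. The HAND-type E-box CATCTG and the MEIS core TGACAG, present in 10.2% and 12.1% of these stretches, were in none of the 8 members with an entry, which were all but DLL1 and HEY1. These matches describe letters in a window and do not locate any factor.

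A gene end counted as occupied where a peak overlapped the 1 kb around it, and for HAND2 and MEIS2 where a region formed by overlapping peaks of both replicates did so. HAND2 regions met an end of 3 of the 10 genes, HES1, HES5 and HEY1, against 19.1% of all protein-coding genes. TCF4 peaks met an end of 6, the same 3 genes and NOTCH1, JAG1 and HES6, against 53.9% of all genes. MEIS2 regions of both replicates met none, against 0.946%, or 0.841% with a peak of each replicate required to reach an end. Single HAND2 replicates met 2 genes (HES1 and HEY1, against 20.6%) and 4 (these with NOTCH1 and HES5, against 27.8%). MEIS2 replicate 1 alone had a peak at an end of HES1 and HEY1, where 11.5% of all genes had one, and MEIS2 replicate 2 at none, where 2.18% had one. NOTCH2, NOTCH3, DLL1 and HEY2 had no peak of any library at an end, which held for 42.7% of all genes. Both HAND2 replicates, MEIS2 replicate 1 and TCF4 all had an end peak at HES1 and HEY1, against 7.32% of all genes. These counts lie near the shares of all genes and so do not mark the 10 genes as a group. At HES5 the replicate 1 peak of the HAND2 region stopped short of the window. With a peak of each replicate required to reach an end, HAND2 was left with HES1 and HEY1, against 18.5% of all genes.

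**Figure D1:**
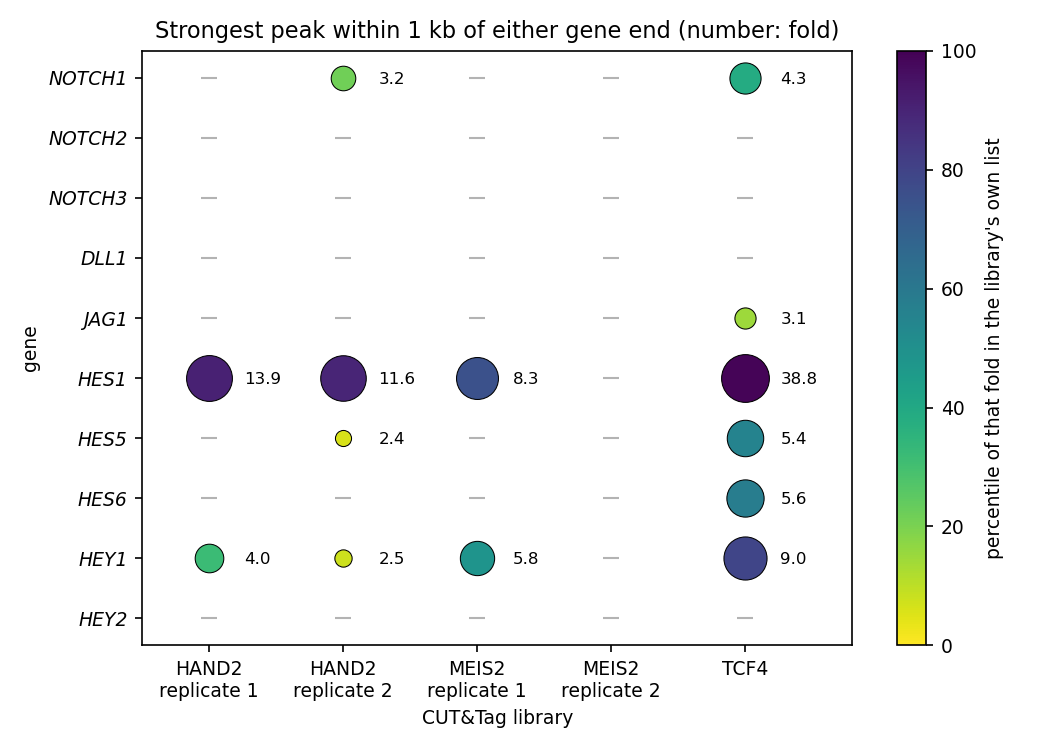
Strongest peak of each library (columns) within 1 kb of either end of the 10 Notch genes (rows). The number is the authors' fold over local background, colour and size give its percentile within that library's own list, and a dash means no peak. HES1 reached 38.8-fold for TCF4, and NOTCH2, NOTCH3, DLL1 and HEY2 had no peak in any of the 5 libraries.

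HES1, the bHLH repressor best known as a direct Notch target, was the most strongly occupied of the 10 genes in every library that had a peak at a member's end. It lies on chromosome 3 from 194136148 to 194138732. Its strongest peak within 1 kb of an end had a fold over local background of 13.9 and 11.6 in HAND2 replicates 1 and 2, 8.34 in MEIS2 replicate 1 and 38.8 for TCF4, and MEIS2 replicate 2 had none. Within each list these folds stood at the 90.8th and 89.6th percentile for HAND2, the 75.1st for MEIS2 replicate 1 and the 99.2nd for TCF4. Among genes with a peak at an end, HES1 ranked 105 of 4115 and 187 of 5552 in the HAND2 replicates, 318 of 2303 in MEIS2 replicate 1 and 41 of 10768 for TCF4. Fold values are the authors', and they rank peaks within a list but do not compare amounts of protein between libraries.

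The occupancy of HES1 was split over several places, and 3 of them carried both HAND2 replicates, MEIS2 replicate 1 and TCF4. Upstream of the start, the summits lay 1205 bp away in HAND2 replicate 1, 1292 bp in HAND2 replicate 2, 1257 bp in MEIS2 replicate 1 and 1290 bp for TCF4, all within 87 bp of each other. The folds there were 10.5 (95% counting interval 8.46 to 12.8) and 11.6 (9.55 to 14.0) for HAND2, 8.34 (5.64 to 11.9) for MEIS2 replicate 1 and 38.8 (34.8 to 43.1) for TCF4. The promoter stretch printed above lay inside the peaks of HAND2 replicate 1 and TCF4, although the summits themselves lay further upstream. Beyond the 3′ end, summits stood 747, 841, 782 and 899 bp from the gene in the same order, with folds of 13.9, 10.1, 6.44 and 23.5. In HAND2 replicate 1 this downstream peak was the higher of the pair, and in the other 3 libraries the upstream one was. The counting intervals of the pair overlapped in both HAND2 replicates and in MEIS2 replicate 1, and were apart for TCF4, at 34.8 to 43.1 against 20.8 to 26.4.

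A further place of HES1 lay about 3 kb beyond the 3′ end, with summits at 3159 and 3182 bp for HAND2, 3176 bp for MEIS2 replicate 1 and 2963 bp for TCF4. Its folds were lower, at 4.57 and 4.45 for HAND2, 4.03 for MEIS2 replicate 1 and 12.5 for TCF4. Local background there stood at the 92.8th and 90.4th percentile for HAND2, the 83.3rd for MEIS2 replicate 1 and the 86.2nd for TCF4. Inside the gene, HAND2 replicate 2 had a summit 1369 bp from the start with a fold of 5.40 and TCF4 had one at 1544 bp with 12.1, while the first HAND2 replicate had 1 broad peak that ran from the upstream summit into the gene. Further out, 31673 and 31731 bp upstream, the HAND2 replicates had folds of 3.03 and 4.11, and TCF4 had 9.48 at 31987 bp. A site 28247 and 28216 bp beyond the 3′ end carried HAND2 alone, with folds of 6.74 and 5.53, and HAND2 replicate 1 had a lone peak of 3.15 at 6119 bp upstream.

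**Figure D2:**
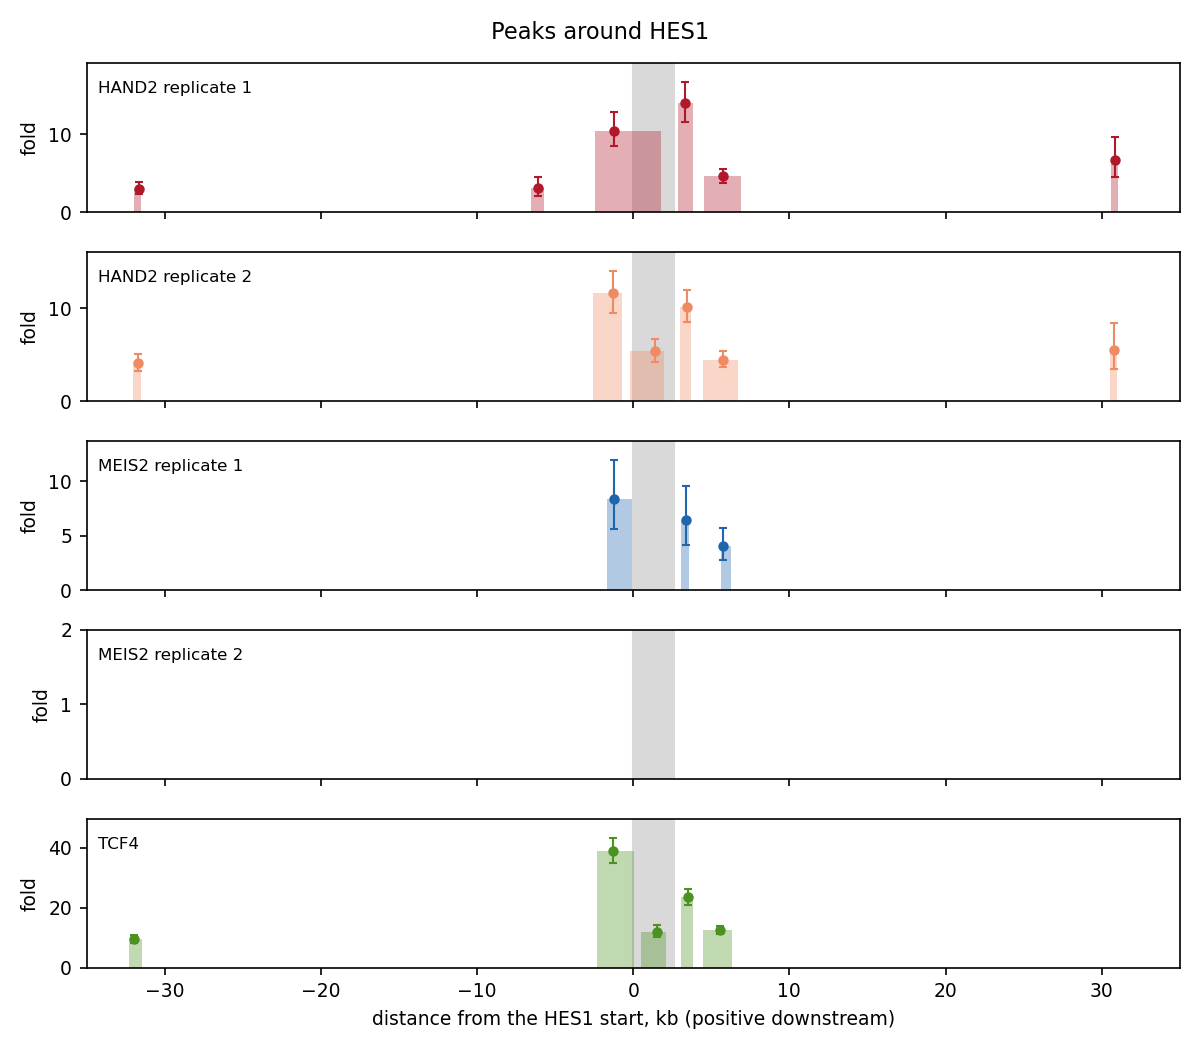
Peaks around HES1 in the 5 libraries, one panel each, against distance from the gene's start in kb. Shaded bars span the peaks, points mark summits at their fold with 95% counting intervals, the grey band is the gene, and each panel has its own fold scale. The upstream peak and the one beyond the 3′ end stand in 4 panels, and the MEIS2 replicate 2 panel holds no peak.

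The genes whose ends looked most like HES1 over the 5 libraries, by distance between the percentiles of their strongest end peaks, were TLX2, RD3, GNG8, SULF2 and LARS2, in that order. The distance was 4.12 percentile points for TLX2, whose percentiles were 90.8 and 87.8 for HAND2, 71.4 for MEIS2 replicate 1 and 99.6 for TCF4, and 9.80 for LARS2. A library without an end peak counted as percentile 0, as did MEIS2 replicate 2 at HES1. That none of the 5 had an end peak in MEIS2 replicate 2 is therefore favoured by this choice and is not a separate likeness.

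HES5, a second Notch-responsive repressor that acts in neural progenitors, stood out by the number of TCF4 peaks around it and not by occupancy of its own ends. HES5 lies on chromosome 1 from 2528745 to 2530263. Within the gene or 50 kb of it there were 17 TCF4 summits, 8 and 7 HAND2 summits, 1 of MEIS2 replicate 1 and 0 of MEIS2 replicate 2. As many TCF4 summits or more were found around 3.99% of all protein-coding genes, and as many in the HAND2 replicates around 8.48 and 14.6%. No summit fell within the HES5 gene itself. The strongest TCF4 peaks lay 13561 bp upstream, with a fold of 26.3 (24.1 to 28.6), and 47015 bp beyond the 3′ end inside PLCH2, with 26.8 (24.5 to 29.3). These stood at the 97.7th and 97.8th percentile of the TCF4 list, and the remaining 15 TCF4 peaks had folds of 2.19 to 7.92.

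HAND2 met both of these strong TCF4 places at HES5. Upstream, replicate 2 had a summit at 13501 bp with a fold of 5.65. Replicate 1 was split there, with 3.06 at 13760 bp and its highest fold, 4.99, at 17045 bp. In PLCH2 the HAND2 folds were 5.62 and 7.25, and MEIS2 replicate 1 had its only peak of the neighbourhood there, at 4.41. The peak that gave HES5 an occupied end lay beyond its 3′ end and also met an end of PANK4, where HAND2 had folds of 2.76 and 2.39 and TCF4 had 5.40. Its local background was at the 94.4th, 97.8th and 97.3rd percentile of each list, and the part of that background in these low folds was not tested.

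**Figure D3:**
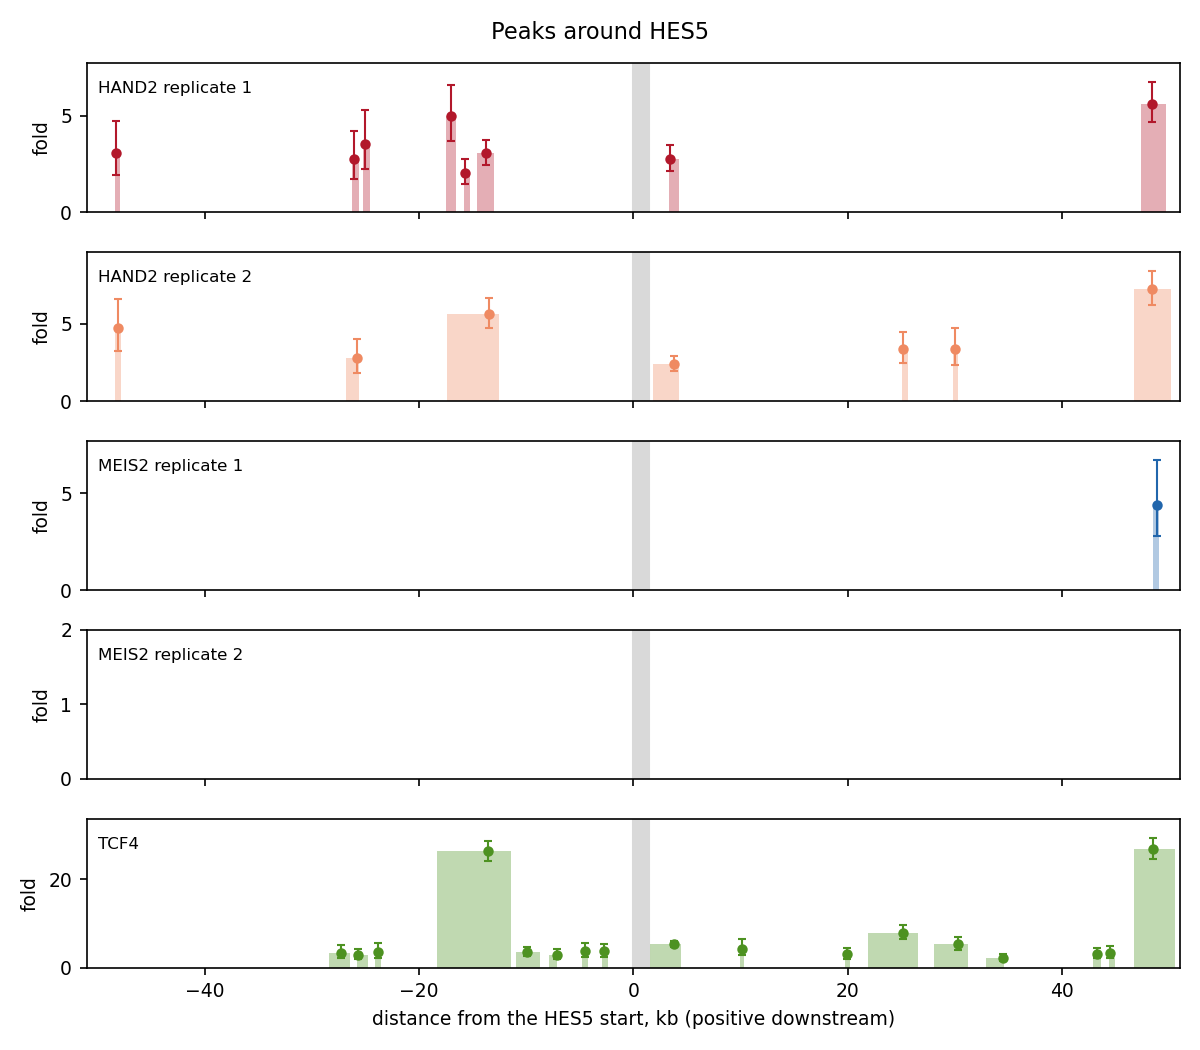
Peaks around HES5 in the 5 libraries against distance from the gene's start in kb, drawn as in the plot of HES1 peaks. TCF4 shows 17 summits, with the highest folds at 26.3 upstream and 26.8 downstream, and MEIS2 shows a single peak, of replicate 1, at the downstream one.

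HES6 differs from its relatives in that it opposes HES1 and favours neuronal differentiation. It lies on chromosome 2 from 238238267 to 238240038. TCF4 had a peak over its start, with the summit 105 bp inside the gene and a fold of 5.64 (4.45 to 7.05), at the 57.9th percentile of the list. Neither HAND2 nor MEIS2 had a peak at either end. The strongest site of HES6 lay inside the neighbouring PER2 gene, 21181 and 21088 bp upstream in HAND2 and 21086 bp in TCF4, where HAND2 had folds of 6.15 and 7.93 and TCF4 had 14.3. The summits of the 3 libraries fell within 95 bp. Also in PER2, 4 libraries had weak peaks 48283 to 48836 bp upstream. Their folds were 2.18 and 2.45 for HAND2, 4.12 for MEIS2 replicate 1 and 2.38 for TCF4. Their local background was at the 81.6th and 76.8th percentile for HAND2, the 94.1st for MEIS2 replicate 1 and the 93.8th for TCF4.

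HEY1 and HEY2 encode repressors that also answer to Notch and are best known in blood vessels and the heart. HEY1, on chromosome 8 from 79764010 to 79767767, had peaks at its higher-coordinate end in 4 libraries. The highest folds there were 3.96 and 2.49 for HAND2, 5.78 for MEIS2 replicate 1 and 9.0 for TCF4. The TCF4 and MEIS2 summits lay 75 and 49 bp from that end. HAND2 replicate 1 had its only summit 1020 bp away, while replicate 2 had one at 784 bp and a weaker one at 2 bp, with a fold of 2.14. The HAND2 region that joined the replicates was the one further from the gene, and it fell outside a window of 500 bp. Local background at this end stood at the 93.8th percentile for TCF4, the 89.4th for MEIS2 replicate 1 and the 69.6th for HAND2 replicate 1. For HAND2 replicate 2 it stood at the 80.5th at the further peak and the 96.5th at the nearer.

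A second HEY1 site, about 16 kb beyond the same end, carried the same 4 libraries with summits within 65 bp. Its folds were 2.89 and 3.82 for HAND2, 5.28 for MEIS2 replicate 1 and 6.53 for TCF4, and its local background stood at the 92.5th to 94.3rd percentile of each list. HEY1 was also the 1 member near which the MEIS2 replicates shared a region. It lay 42281 bp from the lower-coordinate end in replicate 1 and 42767 bp in replicate 2, with folds of 7.25 (3.82 to 12.8) and 4.53 (2.16 to 8.74) on pile-ups of 10 and 7 fragments. MEIS2 replicate 1 had its strongest peak near any member here too, at 13.1-fold and 32997 bp from the higher-coordinate end. MEIS2 replicate 2 had 2 peaks of its own, of 9.07 and 7.37, at 26062 and 27285 bp. The replicates thus met at 1 of 6 places of MEIS2 near HEY1, and over the whole lists 24.6% of replicate 1 peaks and 16.8% of replicate 2 peaks overlapped the other replicate.

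**Figure D4:**
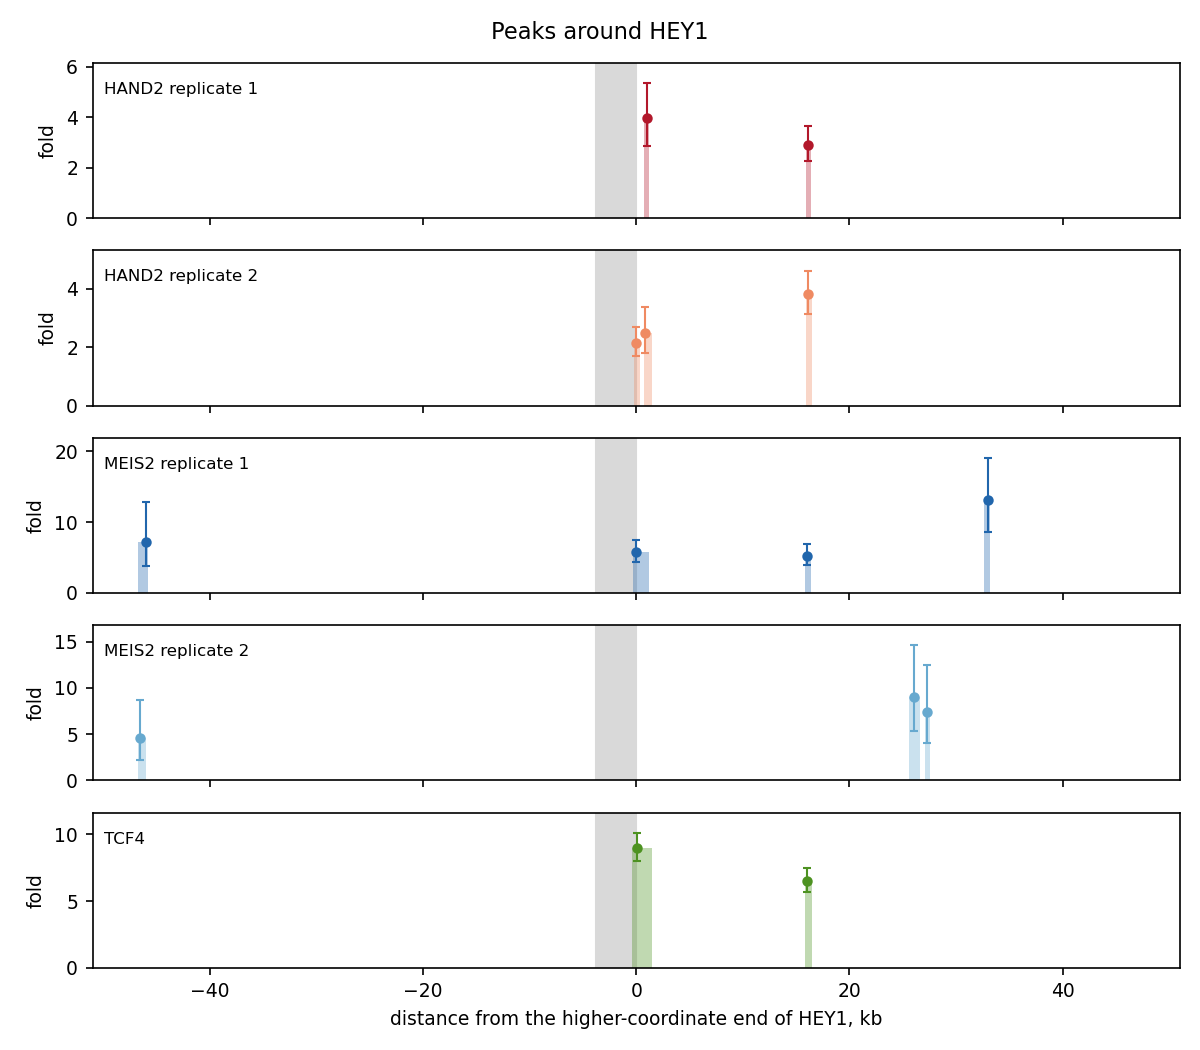
Peaks around HEY1 in the 5 libraries against distance in kb from the higher-coordinate end of the gene, drawn as in the plot of HES1 peaks. The sites at the end and about 16 kb beyond it are in 4 panels, and the shared MEIS2 region lies to the left of the gene at folds of 7.25 and 4.53.

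HEY2, on chromosome 6 from 125749632 to 125761269, had no peak at an end. Its 1 site with several libraries lay inside NCOA7, with summits 29662 and 29554 bp beyond the 3′ end for HAND2, 29668 bp for MEIS2 replicate 1 and 29497 bp for TCF4. The folds were 2.51 and 2.12 for HAND2, 4.03 for MEIS2 replicate 1 and 3.90 for TCF4. These are low in each list, at the 5.80th and 2.48th, 19.8th and 31.7th percentile. The local background was high, at the 92.7th and 96.9th percentile for HAND2, the 83.3rd for MEIS2 replicate 1 and the 92.1st for TCF4.

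Of the receptors, NOTCH1 carried the most peaks, and the HAND2 replicates differed there. NOTCH1 lies on chromosome 9 from 136494433 to 136546048. HAND2 replicate 1 had 3 summits in the gene or within 50 kb and replicate 2 had 14, all but 3 of them inside the gene. Of the sites around NOTCH1, 3 held both replicates, and 1 of these lay within the gene, with both summits at the same base and folds of 3.06 and 2.55. The strongest HAND2 peak in NOTCH1, at 5.34 (3.91 to 7.13), was in replicate 2 only, 30969 bp from the start. TCF4 met both ends, with 4.28 at 378 bp upstream of the start and 3.95 near the 3′ end, where HAND2 replicate 2 had 3.20 with a summit 4 bp from that of TCF4. MEIS2 had no peak in either replicate.

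NOTCH2 and NOTCH3 had no peak at an end. In and around NOTCH2, on chromosome 1 from 119911553 to 120069662, HAND2 and TCF4 had 0 summits, although the gene spans 158110 bp. Only MEIS2 had peaks, 1 in each replicate at different places, with 5.46 in replicate 1 and 8.50 in replicate 2. NOTCH2 has near-identical partial copies elsewhere on chromosome 1, so its counts are uncertain. NOTCH3, on chromosome 19 from 15159038 to 15200995, had 6 TCF4 summits in the gene or within 50 kb, and as many or more were found around 24.9% of all genes. HAND2 had 1 and 4 summits there, and MEIS2 had 2 and 0. The gene held 1 TCF4 peak of 4.03 and 2 peaks of HAND2 replicate 2, of 2.76 and 2.37, inside. The strongest site of NOTCH3 lay at an end of HACL2, 35036 bp beyond the 3′ end in both HAND2 replicates. Its folds were 4.75 and 6.38 for HAND2, 7.63 for MEIS2 replicate 1 and 9.92 for TCF4, whose summit lay at 33443 bp. These peaks had a local background at the 89.8th and 88.7th percentile for HAND2, the 79.7th for MEIS2 replicate 1 and the 91.2nd for TCF4.

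The ligand genes differed in where their peaks lay, with all but 1 of the JAG1 summits inside the gene and those of DLL1 all outside. JAG1, on chromosome 20 from 10637684 to 10673999, had TCF4 180 bp upstream of its start at 3.09-fold (2.46 to 3.83), at the 14.7th percentile of the list and with a local background at the 89.4th. Inside JAG1, 29151 and 29285 bp from the start, HAND2 had 3.73 and 4.96 and TCF4 had 4.61 at 29044 bp. A second site inside the gene joined HAND2 replicate 1, at 5.55, with MEIS2 replicate 2, at 4.62, and was absent from HAND2 replicate 2. DLL1, on chromosome 6 from 170282206 to 170291078, had no peak in the gene. Outside it, 1 site 38250 to 38332 bp from the lower-coordinate end carried 4 libraries within 82 bp, with folds of 3.19 and 3.87 for HAND2, 6.13 for MEIS2 replicate 1 and 6.05 for TCF4. The other 3 sites of DLL1 held TCF4 alone, with folds of 5.09 at 16420 bp, 4.73 at 4763 bp and 4.09 at 15448 bp from the gene.

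**Figure D5:**
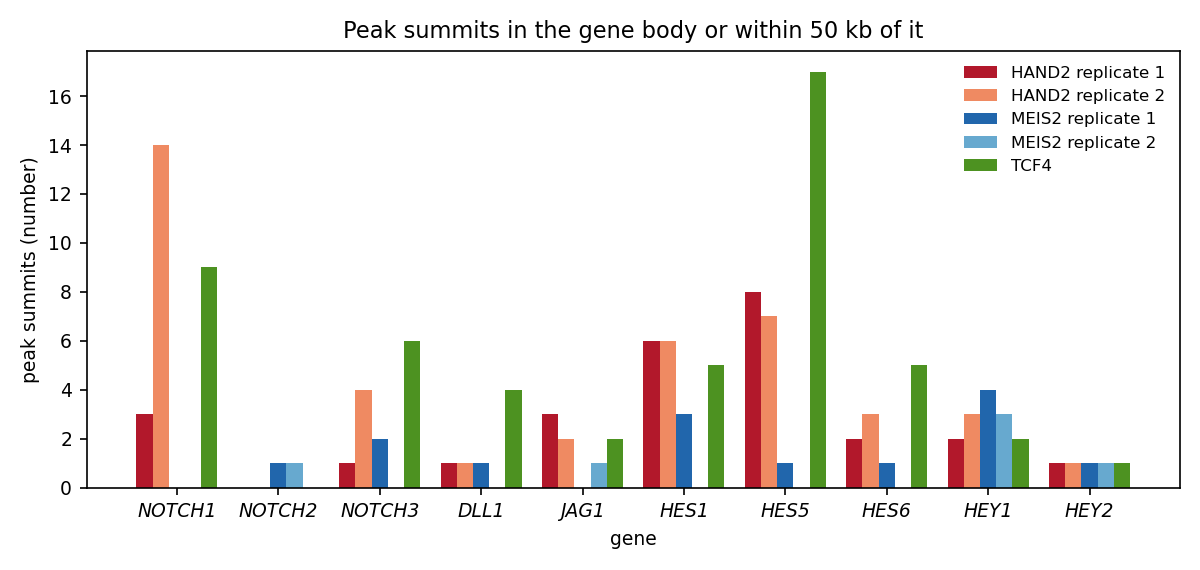
Number of peak summits in each gene or within 50 kb of it, by library, for the 10 Notch genes. TCF4 reaches 17 at HES5 and HAND2 replicate 2 reaches 14 at NOTCH1, where replicate 1 has 3, and NOTCH2 has only single MEIS2 summits.

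Over the 10 neighbourhoods there were 27 and 41 summits in the HAND2 replicates, 14 and 6 in the MEIS2 replicates and 51 for TCF4. HAND2 regions of both replicates had a summit near 9 of the 10 genes, against 55.8% of all protein-coding genes, and TCF4 near the same 9, against 76.0%. The gene without either was NOTCH2. MEIS2 regions were near 1, HEY1, against 9.39%. By single library, HAND2 replicates 1 and 2 were near 9 genes each, against 60.2 and 64.7% of all genes, and MEIS2 replicates 1 and 2 near 8 and 4, against 39.3 and 29.8%. The median count per gene was 2 and 3 for the HAND2 replicates and 4.5 for TCF4, where all genes had medians of 1, 1 and 2. The HAND2 and TCF4 peaks were mostly in the lower part of their lists. Their median fold was 3.53 and 3.49 for HAND2 and 4.09 for TCF4, against 5.08, 4.67 and 4.98 for the whole lists. The MEIS2 peaks had medians of 5.62 and 5.99, against 5.90 and 6.48, and stood nearer the middle, at median percentiles of 45.9 and 40.2.

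Merging overlapping peaks of all libraries gave 73 sites, of which 8 met an end of their own member, 20 lay in its body away from the ends and 45 lay outside it. A single library accounted for 43 sites, including 24 with TCF4 alone. Both HAND2 replicates were present at 21 sites, and TCF4 joined them at 18. Of the 21 HAND2 regions with a summit near the 10 genes, 18 (85.7%) overlapped a TCF4 peak and 10 (47.6%) a peak of MEIS2 replicate 1. All HAND2 regions did so at 53.6 and 30.1%. The regions are few, HES1 and HES5 alone held 5 each of the sites with both HAND2 replicates, and the difference was not tested. Of TCF4 peaks near the 10 genes, 35.3 and 52.9% overlapped the HAND2 replicates, close to 43.0 and 52.9% in the whole list. The 10 sites with both HAND2 replicates, MEIS2 replicate 1 and TCF4 had a median distance between their outermost summits of 195 bp, and the 5000 such sites of the genome had 209 bp. Of the 6 peaks of MEIS2 replicate 2 near the 10 genes, 0 overlapped TCF4, 0 HAND2 replicate 2 and 1 HAND2 replicate 1, where 9.01, 27.7 and 33.8% of its whole list did so. So few peaks cannot be told from those shares.

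Beyond the 10 genes, a list of 60 other Notch pathway genes was read in the same way. HAND2 regions met an end of 13 and TCF4 peaks an end of 48 of them, beside the 19.1 and 53.9% of all genes given above. MEIS2 regions met 2, against 0.946% of all genes. MEIS2 replicate 1 alone had an end peak at 11, against 11.5%, and MEIS2 replicate 2 at 3, against 2.18%. The strongest HAND2 region lay at LFNG, whose product adds sugars to NOTCH receptors and changes which ligands they answer, with folds of 13.8 and 15.1 and a TCF4 peak of 32.4. KAT2B, an acetyltransferase, followed with 11.4 and 11.9 and a TCF4 peak of 12.5. TLE1, a corepressor that HES proteins recruit, had 6.24 and 7.55.

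TLE3, a relative of TLE1, was the gene with regions of both HAND2 and MEIS2, at 4.93 and 6.12 for HAND2 and 6.84 and 3.88 for MEIS2. The other gene with a MEIS2 region was MAML2, a coactivator of the cleaved receptor, at 3.72 and 4.48. For TCF4 the highest folds were 37.0 at PSENEN, a subunit of the γ-secretase that cleaves NOTCH, whose end lies within 1 kb of an end of U2AF1L4, and 32.4 at LFNG. The ubiquitin ligase gene NEURL1B had 17.6 and the acetyltransferase gene EP300 had 14.5. RBPJ itself, singled out after its values were seen, had no peak at an end in any of the 5 libraries.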

How the data were processed

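Peak lists of 5 CUT&Tag libraries were used (HAND2 and MEIS2 in 2 replicates each, TCF4 in 1), grouped by the antibody in the labels. The authors used bcl2fastq 2.17, Bowtie2, MACS3 3.0.0a6 and the hg38 build, per the submitters' processing notes. Their options were not given in these sources. The deposited lists give each peak's fold (a ratio of summit pile-up to local background), −log10 p and −log10 q, and a score that was not used. Peaks were called per sample. Chromosomes 1 to 22 and X were kept, which dropped 0 to 7 peaks per list.

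The pile-up and local background were solved from fold and p (relative tolerance 5e-05, found for 100% of peaks, checked on simulated peaks). Intervals on folds are exact 95% Poisson intervals with the background fixed and cover counting error only. HAND2 and MEIS2 regions join peaks of both replicates that overlap by at least 1 bp, and a region's summit is that of its strongest peak. Coordinates are 1-based. Genes and strands came from RefSeq GRCh38.p14, and percentiles are shares of a list at or below a fold. The genes and lists were chosen with earlier results of these data known, so counts stand beside those of all genes and no list is tested. All 10 members are named. Of the 60 others, those with the highest folds per factor (up to 5, HAND2 and MEIS2 by the lower replicate) and any with both HAND2 and MEIS2 are named. One gene that this rule selects is not reported here. Analyses used Python 3.11.15, pandas 2.3.3 and SciPy 1.17.1. Alternatives covered the windows, the peak threshold, the background, the overlap and each replicate.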

Additional observations from a re-analysis of the deposited data

How the results depend on the processing

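Of 88 alternative values, 59 stayed within 1.5 times the reported count and 29 did not. With the 5000 top peaks per library, HAND2 regions met an end of 1 member (HES1) in place of 3 and of 2 of the 60 others in place of 13. The share of all genes fell as well, from 19.1 to 2.08%. HAND2 regions lay near 2 members as 3 regions in place of 9 and 21, against 16.8% of all genes in place of 55.8%. TCF4 there met 2 members in place of 6 and 12 others in place of 48, against 11.9% of all genes in place of 53.9%. It lay near 5 members as 10 peaks in place of 9 and 51, against 34.0% in place of 76.0%. MEIS2 had 0 members, 0 regions and 0 other genes, against 0.220% of all genes at an end and 3.86% nearby. With −log10 q of 5 or more, MEIS2 had 0 members, 0 regions and 1 other gene, against 0.666% of all genes at an end and 7.27% nearby. With 25 kb, HAND2 regions numbered 12 and MEIS2 had 0 members and 0 regions, against 6.93% of all genes. HAND2 regions then lay near 6 members in place of 9, against 46.2% of all genes in place of 55.8%. TCF4 peaks lay near 8 members in place of 9, against 70.8% in place of 76.0%. With 100 kb the counts were 45 HAND2 regions, 111 TCF4 peaks, and 3 members with 8 regions for MEIS2, against 14.3%. With 1 replicate alone, HAND2 regions near members numbered 27 to 41. The HAND2 count at ends was 2 to 4 members and 14 to 21 others, against 20.6 to 27.8% of all genes. MEIS2 gave 0 to 2 members and 3 to 11 others at ends, against 2.18 to 11.5%. It gave 4 to 8 members nearby with 6 to 14 peaks, against 29.8 to 39.3%. The higher MEIS2 values come from replicate 1, whose list was used alone there. The requirement that a peak of each replicate reach an end was chosen after the data were seen. It left 2 members and 12 others for HAND2, against 18.5% of all genes. No paired analysis was possible because the results are counts from peak lists with no test. The low pile-ups of the MEIS2 libraries limit what their absences show.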

Other observations

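Several sites within 50 kb of a Notch gene stood at the end of another gene. Of the 45 sites outside the members, 8 did so, at SEC16A near NOTCH1, HACL2 near NOTCH3, PANK4 with PLCH2 and TNFRSF14 near HES5, ILKAP and PER2 near HES6 and NCOA7 near HEY2. At PER2, a clock gene, TCF4 and HAND2 replicate 2 had summits 2969 and 2970 bp upstream of the HES6 start, with folds of 2.65 and 2.93, and HAND2 replicate 1 had no peak. At SEC16A, TCF4 had 9.22 and HAND2 had 3.56 and 3.63, higher than any peak inside NOTCH1 for TCF4.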
